A study of Mus musculus with 6 samples.

Results

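Protamines and transition proteins are the basic proteins that pack the DNA of sperm, and 4 genes of this group, Prm1, Prm2, Tnp1 and Tnp2, were read on arrays of mouse testis RNA. They were taken by their platform gene symbols, which gave 4 probes, 1 for each gene, of 23473 probes on the array. The arrays came from testis of C57/BL6 mice in 3 groups of 2. In the MVH precipitate, RNA was recovered with an antibody against MVH (DDX4), an RNA helicase of germ cells, and in the IgG precipitate with normal rabbit IgG. The third group, labelled WCE and called total RNA here, was taken with no antibody. Whole testes were dispersed and lysed, so the RNA came from every cell type of the organ, and the genotype label is the strain alone, with no age or other treatment given. The labels do not say whether arrays 1 and 2 of a group came from separate mice or lysates, so p-values measure only the spread between these arrays, which may be technical.

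In spermatids, histones are first replaced by the transition proteins and these in turn by the protamines, which coil the DNA into the dense sperm nucleus. The genes are transcribed in round spermatids, and their mRNAs are held untranslated in ribonucleoprotein particles until the nucleus elongates. MVH is found in the cytoplasm of germ cells and in the chromatoid body of round spermatids, a granule of RNA and protein. In RefSeq's annotation of assembly GRCm38.p6, Tnp2, Prm3, Prm2 and Prm1 follow each other on chromosome 16 with no gene listed between them, whereas Tnp1 lies on chromosome 1.

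The 100 bases before each RefSeq start site (GRCm38.p6, all on the minus strand) are printed so that the promoters of the 4 genes can be compared. Capitals mark TGACNTCA on either strand, a looser form of the element that the spermatid activator CREM binds, and TATA between 40 and 20 bases before the start.
Prm1, chr16:10796824-10796923: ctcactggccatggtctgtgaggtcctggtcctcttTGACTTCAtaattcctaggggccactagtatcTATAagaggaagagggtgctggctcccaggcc
Prm2, chr16:10792106-10792205: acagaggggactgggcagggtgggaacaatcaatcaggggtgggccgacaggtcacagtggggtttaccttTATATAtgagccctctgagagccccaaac
Tnp1, chr1:73015900-73015999: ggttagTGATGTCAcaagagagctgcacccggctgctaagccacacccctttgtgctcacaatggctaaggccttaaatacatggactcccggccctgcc
Tnp2, chr16:10788656-10788755: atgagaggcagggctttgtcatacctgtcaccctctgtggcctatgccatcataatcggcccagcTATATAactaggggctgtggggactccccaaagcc
Over the 250 bases before the start, TGACNTCA or its reverse complement TGANGTCA was found for Prm1 and Tnp1, and in 7.49% of the 32851 promoters of RefSeq's table. It began 64 bases before the start in Prm1 and 94 bases before it in Tnp1. The strict form TGACGTCA, present in 1.55% of promoters, was found in 0 of the 4. TATA, which reads the same on both strands, was found in its window for Prm1, Prm2 and Tnp2, against 5.34% of all promoters, and in Prm2 and Tnp2 it overlapped itself. These matches describe letters and not binding.

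Each array listed 22090 to 22965 probes, as linear intensities deposited by the authors. The median listed intensity was 30 on 5 arrays and 20.8 on IgG precipitate 2, which also had the most blank probes (1383, against 508 to 1063 on the others). For comparisons, each array was therefore centred on its median and, for display, set to a median of 30. The RNA was amplified and the arrays were centred, so how much RNA each antibody recovered is not known, and in total RNA fewer spermatids and less RNA per spermatid cannot be told apart. The precision is limited by the number of arrays.

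Prm1, Prm2 and Tnp1 were among the 9 brightest probes of every array, while Tnp2 lay well below the top of the scale. Ranks and shares of the maximum describe brightness on an array and not abundance, since probes differ in how well they bind. The Prm2 probe, for the protamine that is made as a longer precursor and then trimmed, had deposited intensities of 67580 and 83665 in MVH precipitates 1 and 2, 65538 and 57732 in IgG precipitates 1 and 2, and 74564 and 77410 in total RNA 1 and 2. It was the brightest probe of both MVH arrays and shared the highest value on both total RNA arrays. On IgG arrays 1 and 2 it had ranks 3 and 2, at 93% and 81.9% of their maximum.

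The Tnp1 probe, for the smaller transition protein, had 61765 and 81167 in the MVH precipitates, 61044 and 70510 in the IgG precipitates and 74564 and 77410 in total RNA. It was the brightest probe of IgG precipitate 2, shared the highest value on both total RNA arrays and had rank 2 on both MVH arrays. The Prm1 probe, for the protamine that needs no trimming, had 53209 and 74652 in the MVH precipitates, 53942 and 54443 in the IgG precipitates and 67960 and 77027 in total RNA. It ranked between 3 and 9 on every array and stood at 76.6% to 99.5% of the array maximum. As deposited, the MVH values of all 3 genes overlapped total RNA, and those of Prm1 and Tnp1 also overlapped IgG, whereas both MVH values of Prm2 lay above both IgG values. The deposited IgG values of all 3 genes lay below total RNA. Neither order held once IgG precipitate 2 was centred.

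**Figure D1:**
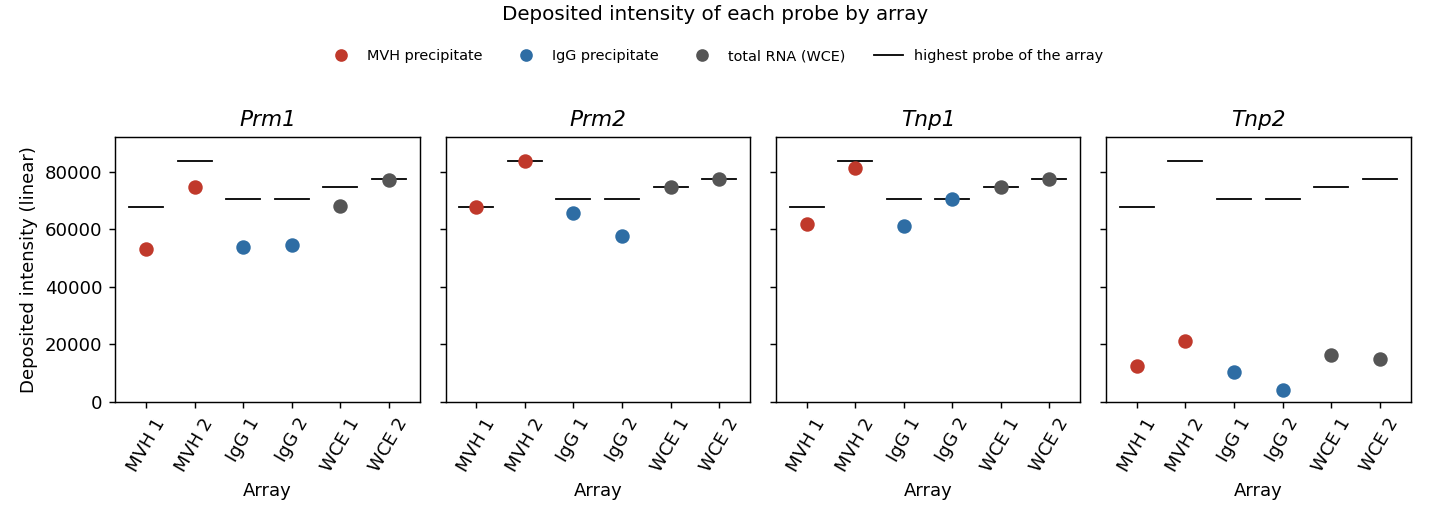
Deposited intensity of the 4 probes (linear axis, arbitrary units) on each of the 6 arrays. Points are single arrays, coloured by group, and the black line is the highest probe of that array. Prm2 and Tnp1 sit on that line on both total RNA arrays, and Tnp2 stays at 25.5% of it or less on every array.

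The top of the scale was reached in total RNA. On total RNA 1 the highest value, 74564, was shared by 2 probes, Prm2 and Tnp1. On total RNA 2 the highest value, 77410, was shared by 4 probes: Prm2, Tnp1, Gstm5, a glutathione transferase gene, and Fam229b. No other value above 20000 occurred more than once on any array, among 44 to 125 probes above that level per array, so the shared values mark a ceiling. Prm1 reached 99.5% of the ceiling on total RNA 2 and 91.1% on total RNA 1. On the 4 precipitate arrays the highest value belonged to 1 probe each, so no ceiling could be read from them, and whether Prm2 or Tnp1 was saturated there was not tested.

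For Prm2 and Tnp1 the total RNA intensity is thus only a lower bound. After centring, the geometric mean of Prm2 was 75194 in the MVH precipitate, 73873 in the IgG precipitate and 75974 in total RNA. That puts total RNA at least 1.01-fold above the MVH precipitate and at least 1.03-fold above the IgG precipitate, provided the precipitate arrays were not saturated too. For Tnp1 the geometric means were 70804 in the MVH precipitate, 78791 in the IgG precipitate and 75974 in total RNA. Under the same condition, the mean of total RNA was at least 1.07-fold above that of the MVH precipitate. The mean of the IgG precipitate was at most 1.04-fold above that of total RNA. These bounds are smaller than the gaps between arrays of 1 group, which were 1.24-fold and 1.31-fold for Prm2 and Tnp1 in the MVH precipitate and 1.27-fold and 1.67-fold in the IgG precipitate. In total RNA the gap was 1.04-fold for both genes, which is the ratio of the 2 ceilings.

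The first comparison asked whether these mRNAs stood higher, relative to the array median, with the MVH antibody than with IgG. Tnp2 was the exception among the 4 in having groups that did not overlap. The Tnp2 probe, for the larger transition protein, which binds zinc, reached 12362 and 21336 on the scaled axis in the MVH precipitates, against 10482 and 6184 in the IgG precipitates, and total RNA had 16206 and 14919. The lowest was IgG precipitate 2 and the highest MVH precipitate 2. The ratio of MVH to IgG for Tnp2 was 2.02-fold (log2 1.01 ± 0.37, SE, n = 2 per group, 95% confidence interval 0.18 to 1.85), which did not pass the threshold of 0.05 after Benjamini-Hochberg adjustment over all probes (limma adjusted p = 0.126). The arrays of a group differed by 1.73-fold in the MVH precipitate and 1.70-fold in the IgG precipitate.

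The size of the Tnp2 value depended on single arrays. It was 0.62 without MVH precipitate 2, 0.63 without IgG precipitate 2, 1.39 without IgG precipitate 1 and 1.41 without MVH precipitate 1, all on the log2 scale. With a variance that follows intensity and a robust prior it passed (adjusted p = 0.0419), and over the 14 alternatives the adjusted p ran from 0.0419 to 0.487, with the difference positive in 14 of 14. A difference at least this large in the same direction was found for 6.85% of the 21574 probes tested, and in 29.9% of them both MVH values lay above both IgG values.

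After centring, Prm1, Prm2 and Tnp1 had overlapping intensities and differences near 0 between the precipitates. Scaled values of Prm1 were 53209 and 74652 with MVH, against 53942 and 78523 with IgG (log2 -0.05, 95% confidence interval -0.76 to 0.66). Prm2 had 67580 and 83665 with MVH, against 65538 and 83268 with IgG (log2 0.03, interval -0.61 to 0.66). Tnp1 had 61765 and 81167 with MVH, against 61044 and 101698 with IgG (log2 -0.15, interval -0.89 to 0.58). In each gene the brighter arrays were MVH precipitate 2 and IgG precipitate 2. The intervals reach 1.58-fold higher and 1.86-fold lower at most, as measured on a scale that may be compressed at its top.

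By limma 0 of the 4 probes passed the threshold between the precipitates, where 7.97% of all probes tested did, and 1 of the 4, Tnp2, had an unadjusted p under 0.05, where 25.5% of all probes did. With the values as deposited, in which IgG precipitate 2 keeps its lower median, the log2 differences became 0.22 for Prm1, 0.29 for Prm2, 0.11 for Tnp1 and 1.28 for Tnp2. That setting moves all probes alike, and the signs of Prm1 and Tnp1 turned with it. Prm3, the remaining gene of the chromosome 16 cluster, encodes an acidic protein of spermatid cytoplasm and not a DNA-packing protein. Its scaled intensities were 4873 and 5734 with MVH, against 6664 and 5078 with IgG (log2 -0.14, adjusted p = 0.852). Its probe was below the top of the scale, like that of Tnp2, and its groups overlapped.

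**Figure D2:**
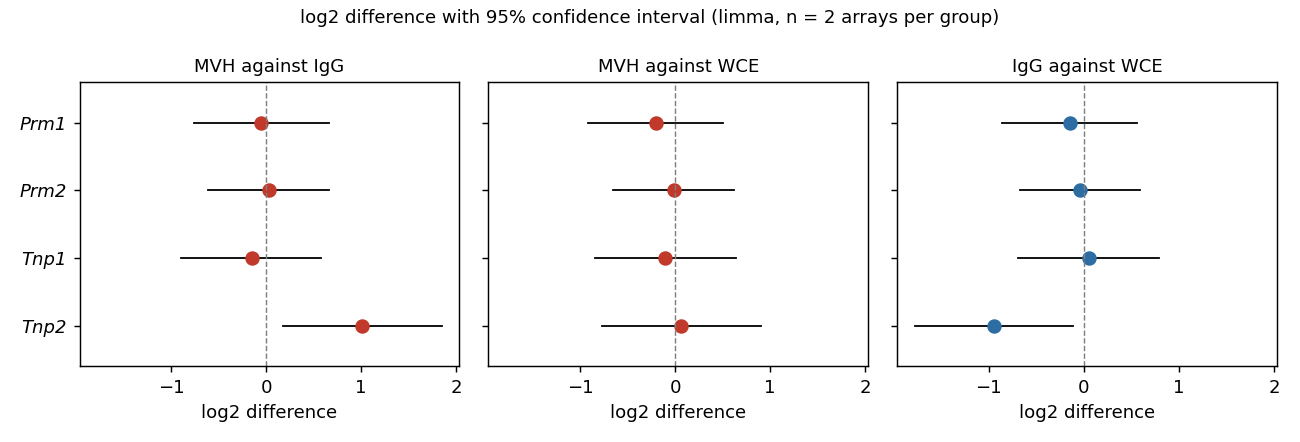
log2 difference of each probe in the 3 comparisons, after centring each array on its median. Points are limma estimates over 2 arrays per group, and lines are 95% confidence intervals. Of the 12 intervals, those of Tnp2 in the 2 comparisons with the IgG precipitate leave out 0, and neither passes adjustment over all probes. For Prm2 and Tnp1 total RNA was at the ceiling, so their points against it are measured values and not estimates of the true difference.

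The MVH precipitate was set against total RNA to ask whether any of the 4 mRNAs was enriched beyond its abundance. For Tnp2 the groups overlapped, and for Prm2 and Tnp1 no difference can be read beyond a bound, since total RNA was at its ceiling. The Tnp2 values of 12362 and 21336 in the MVH precipitates lay on either side of 16206 and 14919 in total RNA (log2 0.06 ± 0.37, SE, n = 2 per group, interval -0.77 to 0.90, limma adjusted p = 0.994), although the difference was -0.33 without MVH precipitate 2 and 0.46 without MVH precipitate 1. Prm1 differed by -0.20 (interval -0.91 to 0.51), with overlapping groups and 1 total RNA array close to the ceiling. The measured differences of Prm2 and Tnp1 were -0.01 and -0.10, and total RNA could lie above the precipitate by more than these values. In this comparison 0 of the 4 passed by limma, where 0.0138% of all probes tested did, and 0 of the 4 had an unadjusted p under 0.05, where 8.93% of all probes did.

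Setting the IgG precipitate against total RNA shows what came down without the specific antibody. Tnp2 had 10482 and 6184 in the IgG precipitate, against 16206 and 14919 in total RNA, with no overlap, and the difference did not pass (0.518-fold, log2 -0.95 ± 0.37, SE, n = 2 per group, interval -1.78 to -0.12, limma adjusted p = 0.22). It was -0.57 without IgG precipitate 2 and -1.33 without IgG precipitate 1. A difference at least this large in the same direction was found for 4.18% of the 21413 probes tested, and in 29.6% of them both IgG values lay below both total RNA values. This comparison shares the IgG arrays with the first one, so the same 2 values enter both Tnp2 differences.

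Prm1 differed by -0.15 (interval -0.86 to 0.56), with overlapping groups. The measured differences were -0.04 for Prm2 and 0.05 for Tnp1, the last with a sign that turned to -0.21 with the values as deposited. Both were taken against total RNA at its ceiling, so total RNA could be higher than measured and these values do not show the groups to be level. By limma 0 of the 4 passed, where 0.00934% of all probes tested did, and 1 of the 4, Tnp2, had an unadjusted p under 0.05, where 18.2% did.

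Differences between groups were small for nearly all probes at the top of the scale. Probes were put in classes by their mean in total RNA, which does not enter the difference between the precipitates. The 20 brightest, which include Prm1, Prm2 and Tnp1, had MVH minus IgG differences with an SD of 0.31 on the log2 scale and a range from -0.81 to 0.45, and limma called 0 of them. At ranks 21 to 100 the SD was 0.75, with a range from -4.02 to 1.21, and 3 of 80 probes (3.75%) were called. At ranks 101 to 500, where Tnp2 and Prm3 lie (ranks 177 and 492), the SD was 0.71 and 43 of 400 probes (10.8%) were called. At ranks 501 to 2000 the SD was 0.82 and 14.7% were called. The interquartile range of the differences was 0.37 in the 20 brightest, 0.84 at ranks 21 to 100 and 1.09 at ranks 101 to 500. A difference of at least 2-fold either way was measured for 0 of the 20 brightest, 8 of the 80 probes at ranks 21 to 100 and 67 of the 400 at ranks 101 to 500.

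The spread over probes of the gap between arrays of the same group narrowed towards the top as well. In the 20 brightest the SD of the gap was 0.18 between MVH arrays, 0.29 between IgG arrays and 0.14 between total RNA arrays, against 0.32, 0.38 and 0.26 at ranks 101 to 500. This SD leaves out any shift that the probes of a class share, so it does not give the size of the gap. For Prm1, Prm2 and Tnp1 the log2 gaps were 0.49, 0.31 and 0.39 between MVH arrays. They were 0.54, 0.35 and 0.74 between IgG arrays and 0.18, 0.05 and 0.05 between total RNA arrays. A gap is a difference of single arrays, while the difference between precipitates is one of means over 2 arrays. If the arrays vary independently, the MVH and IgG gaps give such a difference an SD of 0.17 in the 20 brightest, against 0.31 measured, and of 0.25 at ranks 101 to 500, against 0.71 measured. The share of compression at the ceiling in these small differences was not tested.

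**Figure D3:**
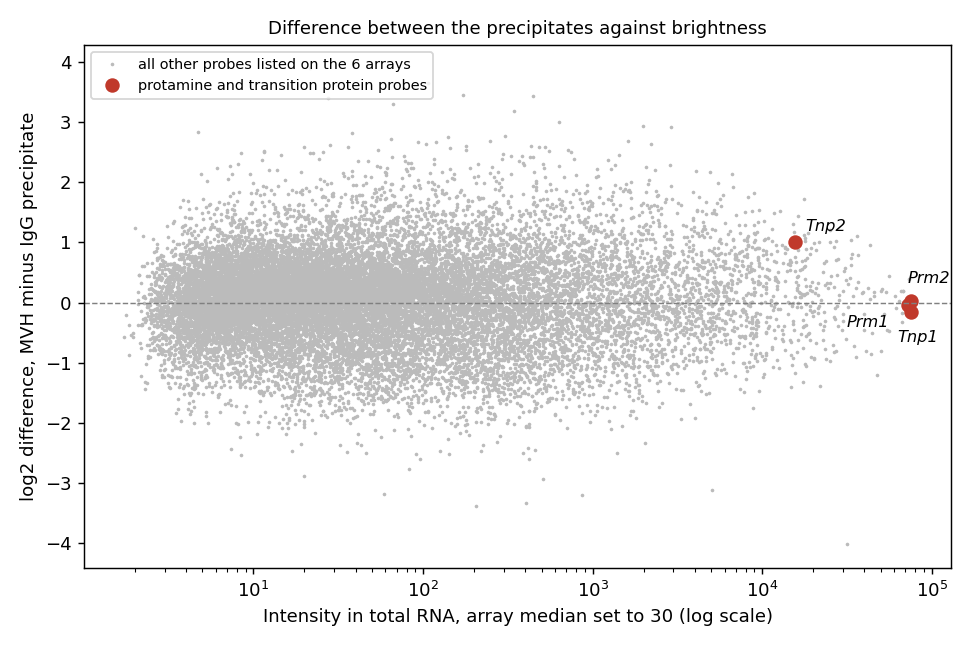
log2 difference between the MVH and IgG precipitates (vertical axis) against intensity in total RNA (log axis, array median set to 30) for the 21241 probes listed on all 6 arrays. The cloud narrows at the right edge, where Prm1, Prm2 and Tnp1 lie near 0, and Tnp2 lies to their left at 1.01.

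**Figure D4:**
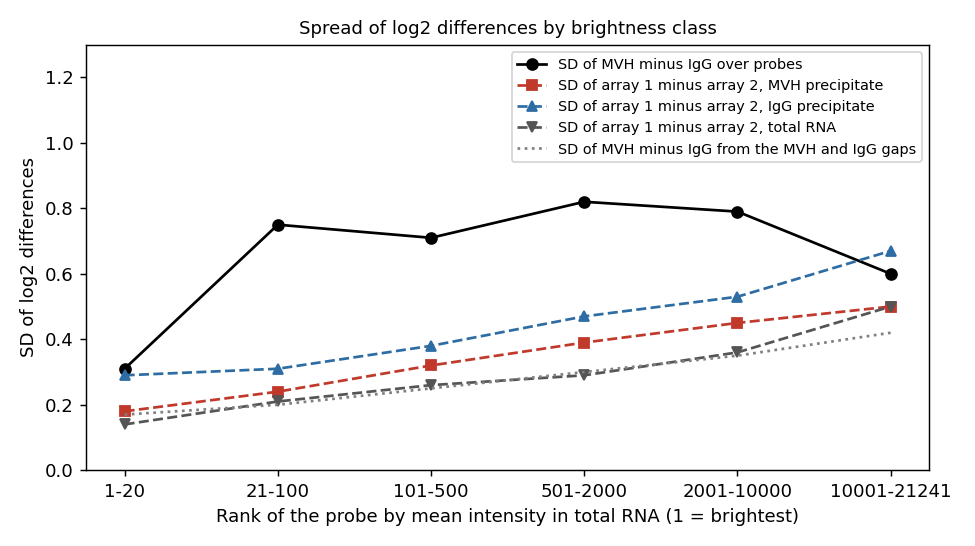
SD of log2 differences over the probes of 6 brightness classes, ranked by mean intensity in total RNA with the brightest at the left. The black line is the difference between the MVH and IgG precipitates and the dashed lines are differences between the 2 arrays of a group. The dotted grey line is the SD that the MVH and IgG gaps alone would give a difference of means over 2 arrays. The black line falls to 0.31 in the 20 brightest probes, where the dotted line is at 0.17.

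Small differences were also measured for other bright probes. The 5 brightest named probes of total RNA outside the 4 genes were Fam229b (an updated symbol), Gstm5, Rpl41, a ribosomal protein gene, Tubb4b, a beta tubulin gene, and Pebp1, which encodes a lipid-binding kinase inhibitor. Their MVH minus IgG differences ran from -0.32 for Tubb4b to 0.39 for Fam229b, and 0 of the 5 passed. By the shape of the 6 centred values, each less its own mean, Pebp1 was also among the 3 named genes nearest to Prm2, at a Euclidean distance of 0.12 log2 units, after Hapln1 (0.10) and Plpp6 (0.11). Nearest to Prm1 were Glce (0.10), C9orf72 (0.11) and Eomes (0.17), and nearest to Tnp1 were Arsb (0.12), Tmem123 (0.14) and Mtap (0.14). All but Pebp1 were dim, with mean scaled intensities of 5.18 to 65.1.

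Tnp2 had no neighbour as close. The nearest were Phf6 (0.28), Myc (0.28) and Dnajc15 (0.29), whose MVH minus IgG differences were 0.95, 1.02 and 0.95. Among the 4 genes themselves, Prm1, Prm2 and Tnp1 lay 0.27 to 0.34 apart, while Tnp2 lay 1.40 from Prm2, 1.47 from Prm1 and 1.68 from Tnp1. These distances describe 6 arrays and carry no test.

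Genes that work on the stored protamine mRNA were measured beside it. Of 16 such genes 13 had a probe that was tested, and between the precipitates 5 were higher with MVH (38.5%, against 3.82% of all probes) and 1 was lower (7.69%, against 4.15% of all probes), with a median log2 difference of 0.62 against 0.07 for all probes. Ybx1 and Ybx3, whose Y-box proteins bind and mask mRNA, were higher by 2.91 (adjusted p = 0.0174) and 1.50 (adjusted p = 0.0396). Ybx3 had 4884 and 2407 with MVH, against 1219 and 1213 with IgG. Ddx25, a helicase needed for spermatids to mature, was higher by 2.51 (adjusted p = 0.0172), at 959 and 1886 with MVH against 279 and 199 with IgG.

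Pabpc1, the poly(A)-binding protein gene, was higher by 1.34 (adjusted p = 0.0266) and Tsnax, a partner of the RNA-binding protein translin, by 1.20 (adjusted p = 0.0397), whereas the translin gene Tsn was lower by 1.28 (log2 -1.28, adjusted p = 0.0312). Ybx2, the germ cell Y-box protein gene, had 2300 and 745 with MVH, against 738 and 592 with IgG, and did not pass (0.99, adjusted p = 0.29). Tarbp2, whose protein is needed for protamine mRNA to be translated in mice, differed by 0.28 (adjusted p = 0.616). The total of 6 called fell to 3 without IgG precipitate 2, 2 without IgG precipitate 1, 1 without MVH precipitate 1, and 0 without MVH precipitate 2, without either total RNA array or when only the 4 arrays compared were fitted.

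Other mRNAs of late spermatids included several that were higher with MVH than with IgG. Of 25 listed genes 23 were tested, and 7 were higher (30.4%, against 3.82% of all probes) and 0 lower, where 4.15% of all probes were lower, with a median of 0.60 and 22 of 23 differences positive. At an unadjusted p under 0.05 there were 11. In either direction together, 10.8% of probes at ranks 101 to 500 in total RNA and 14.7% at ranks 501 to 2000 were called. Most genes of this list and of the storage list had the brightness of those classes, so the share over all probes is a low yardstick. Pgk2, the sperm phosphoglycerate kinase gene, was higher by 2.13 (adjusted p = 0.0177), Akap3, of the fibrous sheath of the tail, by 2.08 (adjusted p = 0.0166), Tcp11 by 1.79 (adjusted p = 0.0265) and the actin-bundling protein gene Fscn3 by 1.51 (adjusted p = 0.0198). The called total was 3 without either IgG array, and 0 without either MVH array, without either total RNA array or when only the 4 arrays compared were fitted. Tnp2, at 1.01, lay above the median of this list, and Prm1, Prm2 and Tnp1 lay below it. Against total RNA the list median was 0.23 for MVH, with 17 of 23 positive, where all probes had -0.02. For IgG it was -0.63, with 18 of 23 negative, where all probes had -0.10. By these medians the larger part of the list's gap between the precipitates lay on the IgG side, but its size depended on the setting. The medians for MVH and IgG were 0.34 and -0.38 with quantile normalization, and 0.23 and -0.89 with no centring. In the main fit 0 genes of the list passed against total RNA for either precipitate, and the split of the gap was not tested.

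The list for transcription held 1 call. Of 9 genes for the CREM-driven transcription of haploid cells 8 were tested, with a median of 0.68 against 0.07 for all probes, and 1 was higher (12.5%, against 3.82% of all probes) and 0 lower. The higher gene was Kif17, a kinesin gene whose protein moves the CREM coactivator (2.10, adjusted p = 0.0166). It had 433 and 480 with MVH, against 90.3 and 125 with IgG. That 1 call became 0 without either MVH array, without either total RNA array or when only the 4 arrays compared were fitted. It became 2 without IgG precipitate 2, with quantile normalization, centring on the 75th percentile, an offset, no dim probes, a variance trend or the replicate block. Fhl5, the gene of that coactivator, differed by 0.64 (adjusted p = 0.278).

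Of 21 genes of the exchange of histones for protamines 18 were tested and 0 passed by limma in either direction (2 at an unadjusted p under 0.05), with a median of -0.03 against 0.07 for all probes. The largest differences were Kat5, a histone acetyltransferase gene, at 1.13 (adjusted p = 0.0657) and Top2b, a DNA topoisomerase gene, at -0.81 (adjusted p = 0.0985). The count was 1 without IgG precipitate 1, with an offset, without dim probes, with a variance trend or with the replicate block.

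Against total RNA 0 genes of the 4 lists passed for either precipitate by limma. For MVH the list medians were 0.34 for storage, 0.13 for transcription and 0.08 for the exchange, against -0.02 for all probes. For IgG they were -0.39, -0.53 and 0.11 in the same order, against -0.10 for all probes. Over the 62 tested, the unadjusted p was under 0.05 for 9 genes with MVH (14.5%, against 8.93% of all probes) and 24 with IgG (38.7%, against 18.2% of all probes). For MVH the count stayed at 0 under all 14 alternatives. For IgG, late spermatid mRNAs reached 3 called with centring on the 75th percentile, 5 with an offset, 5 without dim probes, 6 with a variance trend, and 1 with quantile normalization or the replicate block. Under the offset, without dim probes and with the variance trend, 2, 2 and 3 genes of the exchange list and 1, 1 and 2 genes of the storage list were called, and 1 storage gene was called without IgG precipitate 1.

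**Figure D5:**
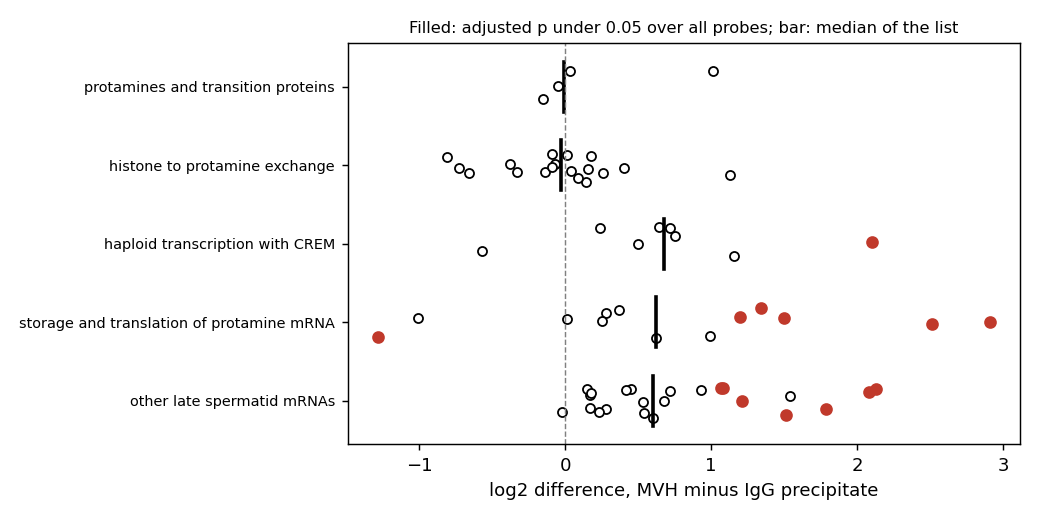
log2 difference between the MVH and IgG precipitates for the 4 genes and for the genes of 4 lists (1 probe per gene, vertical scatter for display only). Filled points passed the adjusted threshold over all probes and bars are medians. The lists of mRNA storage factors and late spermatid mRNAs hold 6 and 7 filled points and the protamine and transition protein row holds 0.

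Leydig cell markers and the peritubular markers Acta2 and Myh11 had their highest values in the IgG precipitate. Against total RNA none of these differences passed by limma in the main fit. The adjusted p was 0.0542 for Myh11, 0.059 for Acta2 and 0.0631 to 0.341 for the Leydig cell markers. Sertoli, blood and macrophage markers were mixed. Of 6 Leydig cell markers 5 had a probe, each listed on all arrays, and their summed scaled intensities were 509 and 490 in the MVH precipitates, 2997 and 1884 in the IgG precipitates and 658 and 1129 in total RNA. By limma 4 of the 5 were lower with MVH than with IgG and 0 were higher. Of all probes tested 4.15% were lower and 3.82% higher, and these shares apply to each marker count below. When only the 4 arrays compared were fitted, 0 probes of the array passed between the precipitates, markers included. For 5 peritubular and vascular markers the sums were 536 and 331 in the MVH arrays, 3129 and 1441 in the IgG arrays and 398 and 493 for total RNA, and 2 of the 3 tested were lower with MVH than with IgG. Most of each sum was Acta2, at 3037 and 1388 in the IgG arrays. The third marker tested, Cnn1, was not higher with IgG than in total RNA (log2 -0.18). For 5 of 6 Sertoli cell markers they were 4004 and 3899 in the MVH arrays, 8563 and 6615 in the IgG arrays and 5268 and 5622 for total RNA. Most of that sum was Clu, which did not pass (log2 -0.75, adjusted p = 0.113), and 1 of the 5, Amhr2, was lower with MVH, while Sox9 and Gata4 differed by 0.04 and 0.27. For 4 of 5 blood and macrophage markers the sums were 77.6 and 82.9 in the MVH arrays, 81.8 and 83.8 in the IgG arrays and 89 and 86.7 for total RNA. Of these 1, the platelet factor gene Pf4, was lower with MVH, and 3 of 4 differences were positive, with a median of 0.20. Pecam1 and Cdh5 were each blank on 1 IgG array, and Cnn1 and Star were dim, at scaled intensities of 3.03 to 12.4. The part of these cells in the Tnp2 values was not tested. Of the germ cell markers, 1 of 5 for spermatocytes, Sycp3, was higher with MVH than with IgG (log2 1.79, limma adjusted p = 0.0349). For spermatids 0 of 7 tested passed, and for spermatogonia 0 of 3. Ddx4, the mRNA of the precipitated protein, differed by 0.05 between the precipitates (adjusted p = 0.944).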

How the data were processed

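Amino allyl aRNA was made from each sample and labelled with Cy5, 1 sample to an array, per the labels' protocols, and part of the protocol text, on another kind of sample, was not used. The values are linear probe intensities as the authors deposited them. How they were scanned, background-corrected and scaled, and why some cells are blank, is not stated in the labels. The platform annotation named the genes (16631 probes with 1 symbol, 6842 with none, 0 with several), and symbols were updated through RefSeq synonyms of GRCm38.p6. The deposited table names no build, and the printed coordinates are those of RefSeq's promoters.

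Intensities were taken to log2 and centred on the array median. limma 3.58.1 (lmFit, eBayes) in R 4.3.3 was fitted to all 6 arrays, with 3 residual and 5.77 prior degrees of freedom, and a probe was tested where the 4 arrays compared had a value. p-values were adjusted by Benjamini-Hochberg over all probes tested, with a threshold of 0.05. Standard errors of log2 differences had a median of 0.31. In simulated data for the MVH against the IgG precipitate (21241 probes), 13.4% of probes changed 2-fold, 98.5% of those changed by log2 2 and 100% of those changed by log2 3 were recovered, with 8 false calls. A 2-fold change was thus usually missed in the simulation. It changed only 67, 67 and 66 probes at these sizes, where 1719 were called in the data. On this count the adjusted threshold was harder to pass than in the data. The simulated noise was normal and independent, with probe variances already moderated towards a common value. Recovery in the data is therefore not known at any of these sizes. No test of a list was made. A list used 1 probe per gene, that with the highest mean.

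The text names the 4 genes, Ddx4, up to 4 called members of each list in each direction by size or, where none passed, the 2 largest, the 3 genes nearest each gene, and the 5 brightest named probes outside them. Tsnax, Ybx2, Tarbp2, Fhl5, Prm3, Sycp3 and the single markers of somatic cells were named after their values were seen. The genes and lists were chosen with earlier results of these data known. The alternatives were quantile normalization, no centring, an offset of 2.7 before log2, leaving out the dimmest 25% of probes, a variance trend with a robust prior, a fit of only the 4 arrays compared, a replicate block, centring on the 75th percentile, and leaving out each array. Plots were drawn with matplotlib 3.10.9.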

Additional observations from a re-analysis of the deposited data

How the results depend on the processing

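Several measured differences of Prm1, Prm2 and Tnp1 changed sign with the setting, and none of them passed under any of the 14 alternatives. Between the MVH and IgG precipitates, Prm1 turned to 0.22 with no centring and 0.01 with centring on the 75th percentile, and Tnp1 to 0.11 with no centring and 0.01 with quantile normalization. Against total RNA, Prm2 in the MVH precipitate turned to 0.08 with quantile normalization, and Tnp1 in the IgG precipitate to -0.21 with no centring, -0.01 with quantile normalization and -0.0039 with centring on the 75th percentile. The cause was not tested. Tnp2 between the precipitates kept its direction throughout and passed with a variance trend and robust prior (1.01, adjusted p = 0.0419).

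With 1 array left out, where the lone array of a group is assumed to vary like the others, MVH minus IgG ran from -0.32 to 0.22 for Prm1, -0.15 to 0.20 for Prm2, -0.52 to 0.21 for Tnp1 and 0.62 to 1.41 for Tnp2. MVH minus total RNA ran from -0.44 to 0.05, -0.17 to 0.14, -0.30 to 0.10 and -0.33 to 0.46 in the same order of genes, and IgG minus total RNA from -0.42 to 0.12, -0.21 to 0.13, -0.32 to 0.42 and -1.33 to -0.57.

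The number of probes called anywhere on the array depended on the setting. Between the precipitates it was 1719, and 823 with no centring, 2849 with an offset, 3116 without the dimmest 25% of probes, 3155 with a variance trend and 0 when only the 4 arrays compared were fitted, with 0 to 1327 when 1 array was left out. Of the 823 called with no centring, 702 were higher and 121 lower, against 824 and 895. For MVH against total RNA it was 3, and 19 with no centring, 8 with centring on the 75th percentile, 95 with an offset, 123 without dim probes, 184 with a variance trend and 6 in the fit of 4 arrays, with 0 to 10 when 1 array was left out. For IgG against total RNA it was 2, and 5 with no centring, 141 with quantile normalization, 211 with centring on the 75th percentile, 962 with an offset, 1183 without dim probes, 1261 with a variance trend, 1 in the fit of 4 arrays and 150 with the replicate block, with 0 to 58 when 1 array was left out.

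The labels number the arrays of each group 1 and 2 but do not say that a number marks a shared lysate or day. The deviations of same-numbered arrays correlated at 0.157 between MVH and IgG, 0.156 between MVH and total RNA and 0.101 between IgG and total RNA. With the replicate block 2263 probes were called between the precipitates, 4 for MVH against total RNA and 150 for IgG against total RNA. The log2 difference of Tnp2 was 1.01 with the block (adjusted p = 0.127) and 0 of the 4 genes passed. Near the ceiling of the scale the arrays cannot show a further rise, whatever the setting.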
